A study of Ovis aries with 16 samples.

Results

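The proximal miR-379 block is a run of miRNA genes in the large imprinted miRNA cluster on sheep chromosome 18. Its members were taken by name, as the known sheep miRNAs (prefix oar-) miR-379, miR-411a, miR-411b, miR-299, miR-380, miR-1197, miR-323a, miR-323b, miR-323c and miR-758, with any arm. These 10 names gave 12 of the 103 known miRNAs and of the 271 miRNAs listed in all, with 9 of the 10 names present. miR-323b was not analysed here. Both arms of the precursor hairpin were listed for miR-379, miR-411a and miR-1197, and 1 mature form was listed for each of the others.

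The libraries came from the testes of 16 sexually mature Merino males fed for 65 days to change their body mass. The 8 well-fed males were fed for a gain of 10% and the 8 underfed males for a loss of 10%, with no other treatment or allele separating the groups. Total RNA of whole, unsorted tissue was made into 1 small RNA library per male, so the replicates are separate animals, and the labels describe no control group kept at constant mass. In such bulk tissue, fewer cells of a type and less RNA per cell cannot be told apart.

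Imprinted genes are expressed from 1 parental copy, and in the Dlk1-Dio3 domain the maternally inherited chromosome gives the long non-coding RNAs and the miRNAs, while the paternal one gives the protein-coding genes. The domain is known in sheep for the callipyge mutation, which enlarges the muscles of the hindquarters. A miRNA precursor is cut into a duplex of a 5p and a 3p arm, of which 1 is usually kept by an Argonaute protein and guides it to partly matching sites in messenger RNAs. Of the members, miR-379 is known as a glucocorticoid-responsive miRNA of the liver, miR-758 as a repressor of the cholesterol transporter ABCA1, and the 5p arm of miR-380 as a repressor of p53. The 5p arm of miR-380 was not analysed here.

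All 10 names matched a symbol of the RefSeq table of the assembly ARS-UI_Ramb_v3.0, on chromosome 18. There the miRNA genes follow each other from MIR379 in the order MIR379, MIR411A, MIR299, MIR380, MIR411B, MIR1197, MIR323A and MIR758, in places 1 to 8 with no other miRNA gene between them. MIR323C stands apart from this run, at place 46 directly after MIR410, with 37 miRNA genes between it and MIR758. oar-miR-323c is therefore given with the members as the choice by name requires, and set values are also given without it. The deposited values were made on the older build Oar_v3.1, for which no positions were used.

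The values are CPM, read counts scaled to a total of 1000000 miRNA reads in each library. The reads behind them were recovered from the smallest steps between values, and ranged from 17163 to 503915 miRNA reads in the well-fed libraries (median 294247) and from 27797 to 1058985 in the underfed libraries (median 532446). Well-fed replicate 5 and underfed replicates 6 and 8 held fewer than 100000 miRNA reads, and in these a single read was worth 58.3, 36.0 and 19.96 CPM. In the deepest library it was worth 0.944 CPM. A member with 0 reads can thus have up to 3 reads' worth of true signal, which ranged from 2.83 CPM in the deepest library to 175 CPM in the shallowest. These limits cover counting error only. Log2 fold changes of the tested members are given with and without the 3 shallow libraries.

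Taken as a sum, the 12 members made up a small share of testicular miRNA. They held 3165 ± 481 CPM in the well-fed males (SD, n = 8), or 0.317% of the miRNA reads, and 1904 ± 1077 CPM in the underfed males (SD, n = 8), or 0.190%. The sum ranged from 2548 to 4102 CPM in the well-fed males, with a median of 3104, and from 946 to 4351 CPM in the underfed males, with a median of 1564. The underfed range thus reached beyond the well-fed one at both ends. Its upper end was underfed replicate 8, a shallow library. In deposited CPM the other 7 underfed males, at 946 to 2333 CPM, lay below all 8 well-fed males. This separation was seen in deposited CPM only, and the sum was not computed after TMM scaling between libraries. After that scaling the most abundant member, oar-miR-411a-5p, did not separate the diets in this way. In it underfed replicates 2, 4, 6 and 7 lay inside the well-fed range and replicate 8 above it, with replicates 1, 3 and 5 below.

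The members differed widely in level. oar-miR-411a-5p held on average 58.6% of the reads of the block, oar-miR-380-3p 22.4% and oar-miR-323a-3p 11.2%. The other 9 members together held 247 ± 65.4 CPM in the well-fed and 135 ± 54.2 CPM in the underfed males (SD, n = 8 each). The order of the first 4 was stable from male to male. oar-miR-411a-5p was above oar-miR-380-3p in 15 of 16 males, and oar-miR-380-3p above oar-miR-323a-3p and oar-miR-323a-3p above oar-miR-379-5p in 16 of 16. Below these the neighbours in the order were not separated beyond their spread. oar-miR-379-5p stood above oar-miR-758-3p in 11 males, oar-miR-758-3p above oar-miR-1197-3p in 11, and oar-miR-1197-3p above oar-miR-379-3p in 7. Mature miRNAs are of nearly equal length, so CPM needed no correction for length, but adapters are ligated to different miRNAs with different efficiency and levels between members include that.

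**Figure D1:**
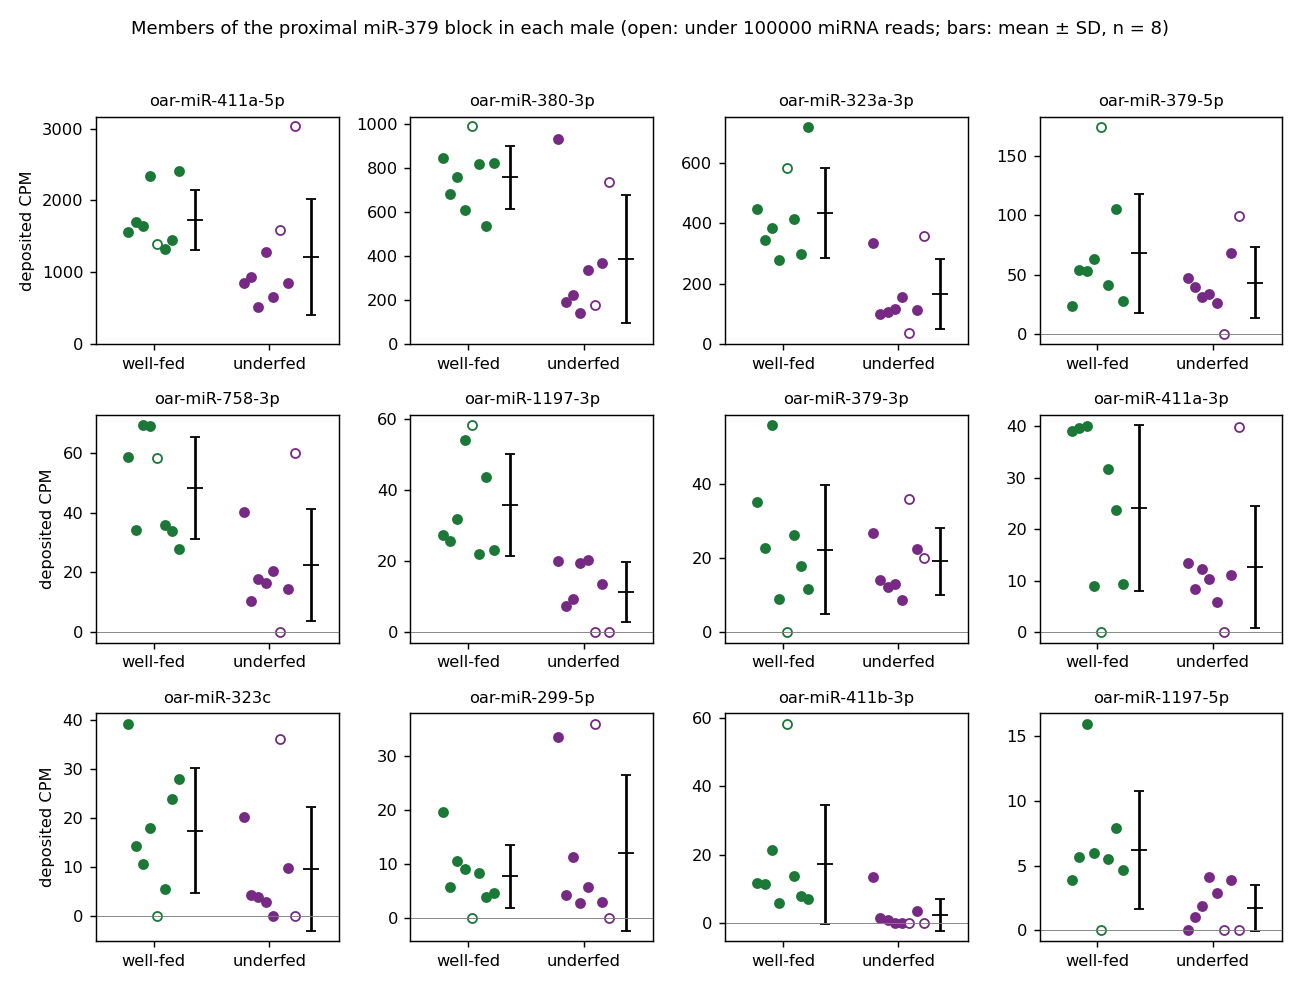
Deposited CPM (linear vertical axes, a separate scale for each panel) of the 12 members in each male by diet, with open circles for the 3 libraries under 100000 miRNA reads and bars for the mean ± SD of 8 males. In oar-miR-380-3p and oar-miR-323a-3p 2 underfed males stand at 739 to 932 CPM and 335 to 359 CPM, within the well-fed range, and the other 6 stand below all well-fed males.

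oar-miR-411a-5p, the 5p arm of the second hairpin of the run, was the most abundant member with 7621 reads in all. Its lowest, median and highest values were 1318, 1602 and 2415 CPM in the well-fed males. In the underfed males they were 517, 895 and 3034 CPM. In deposited CPM the groups overlapped only through the shallow underfed replicates 6 and 8, at 1583 and 3034 CPM. The other 6 underfed males, at 517 to 1288 CPM, lay below all 8 well-fed males. After TMM scaling underfed replicates 2, 4 and 7 also lay inside the well-fed range. The ratio of mean CPM (FC, underfed/well-fed) was 0.704 over 16 libraries and 0.479 over the 13 deeper ones. On the log2(CPM + 1) scale, after TMM scaling between libraries, the difference was -0.21 ± 0.27 (SE) with a limma FDR of 0.614. Over the 13 deeper libraries it was -0.59 with a limma FDR of 0.0851.

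oar-miR-380-3p, from the fourth hairpin, had 2759 reads. Its lowest, median and highest values were 536, 790 and 991 CPM in the well-fed males and 143, 280 and 932 CPM in the underfed males. In deposited CPM underfed replicates 1 and 8, at 932 and 739 CPM, lay inside the well-fed range. The other 6 underfed males lay between 143 and 368 CPM, below every well-fed male. After TMM scaling underfed replicate 7 also lay above the lowest well-fed male. The mean was 759 ± 145 CPM against 389 ± 291 CPM (SD, n = 8 each), an FC of 0.513. The log2 fold change was -0.77 ± 0.28 (SE), with an unadjusted p of 0.0103 and an FDR of 0.0929 in limma. The member thus missed the threshold of 0.05. Over the 13 deeper libraries the log2 fold change was again -0.77, with a limma FDR of 0.0516. With 1 male left out it missed the threshold in 14 of 16 limma fits, with an FDR of up to 0.151, and passed it without underfed replicate 1 (0.0159) or underfed replicate 8 (0.0368).

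oar-miR-323a-3p, from the seventh hairpin, fell in the underfed males. It had 1399 reads, and its lowest, median and highest values were 279, 399 and 718 CPM in the well-fed males. In the underfed males these values were 36.0, 115 and 359 CPM. The upper underfed values came again from replicates 8 and 1, at 359 and 335 CPM, inside the well-fed range, while the other 6 underfed males held 36.0 to 157 CPM. The means were 433.5 ± 149 and 166 ± 117 CPM (SD, n = 8 each), an FC of 0.382. The log2 fold change was -1.15 ± 0.33 (SE) with an FDR of 0.0391 in limma. Over the 13 deeper libraries the change was -0.997, with a limma FDR of 0.00663, and edgeR on the recovered reads gave -0.99 with an FDR of 0.0137. The call was lost in limma when any 1 of 11 males was left out (well-fed replicates 1, 2, 3, 5, 6 and 8, and underfed replicates 2, 3, 4, 5 and 7), with an FDR between 0.0534 and 0.0970, while the fold change stayed between -1.32 and -0.95.

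oar-miR-411b-3p, from the fifth hairpin, was the other member that fell, on very few reads. It had 24.5 reads in the well-fed and 8 in the underfed libraries. The well-fed males held 6.004 CPM at the lowest, 11.6 at the median and 58.3 at the highest, the last of these being 1 read in the shallow replicate 5. The underfed males held 0, 0.472 and 13.4 CPM, with 4 of 8 at 0, and only underfed replicate 1 at 13.4 CPM stood inside the well-fed range. Of the 4 males at 0, underfed replicates 4 and 5 had limits of 4.16 and 8.74 CPM for a count of 0, and the shallow replicates 6 and 8 had limits of 108 and 59.9 CPM, above every value of this member.

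The FC of oar-miR-411b-3p was 0.141 over 16 libraries and 0.285 over the 13 deeper ones, where the means were 11.3 ± 5.24 CPM (SD, n = 7) and 3.22 ± 5.15 CPM (SD, n = 6). A test required more than 5 CPM in 8 or more libraries. oar-miR-411b-3p reached this in 9, all 8 well-fed ones and underfed replicate 1. Its entry thus rested on the well-fed males, with 1 read in replicate 5 and 1.5 reads in replicate 8. Its log2 fold change of -2.48 ± 0.68 (SE) was the lowest of the 244 miRNAs tested, with an FDR of 0.0369 in limma. In the fit without this filter the log2 fold change was again -2.48, with a limma FDR of 0.0323. It was -1.82 over the deeper libraries, with a limma FDR of 0.0423, and depended on the pseudocount, from -3.01 with 0.5 CPM to -1.30 with 5 CPM. The limma FDR was 0.0534 to 0.0676 without any 1 of well-fed replicates 1, 2, 3, 5, 6 and 8 and underfed replicates 2, 3, 4 and 5, so that the call was lost in 10 of 16 such fits.

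oar-miR-1197-3p, from the sixth hairpin, was the only member whose groups did not overlap in deposited CPM over the 16 libraries. With 131 reads, it held 22.1, 29.7 and 58.3 CPM at the lowest, median and highest in the well-fed males, and 0, 11.5 and 20.4 CPM in the underfed males. Both underfed males at 0 were the shallow replicates 6 and 8. Their limits for a count of 0 were 108 and 59.9 CPM, above every well-fed value. After TMM scaling the groups overlapped, with underfed replicates 4 and 5 at 23.8 CPM and well-fed replicate 8 at 18.4 CPM. Deposited CPM was lower in all 8 underfed than in all 8 well-fed males for 2.05% of the 244 miRNAs tested and for 1 of the 11 members tested. Over the 13 deeper libraries deposited CPM of the underfed males lay below that of all well-fed males for 5.74% of all miRNAs. This was so for 2 of the 11 members, oar-miR-411a-5p and oar-miR-1197-3p. Underfed values lay above all well-fed ones for 0.41% of all miRNAs and no member. The FC was 0.316, and 0.462 over the deeper libraries. The log2 fold change was -1.77 ± 0.72 (SE) with an FDR of 0.131 in limma, and -0.62 over the deeper libraries with a limma FDR of 0.174.

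oar-miR-758-3p, from the last hairpin of the run, held 48.4 ± 17.2 CPM in the well-fed and 22.5 ± 18.8 CPM in the underfed males (SD, n = 8 each) on 172 reads. The lowest, median and highest values were 27.8, 47.1 and 69.3 CPM against 0, 17.3 and 59.9 CPM. As for oar-miR-380-3p and oar-miR-323a-3p, the underfed males above the lowest well-fed male in deposited CPM were replicates 8 and 1, at 59.9 and 40.2 CPM. After TMM scaling underfed replicates 3 and 5, at 22.7 and 23.8 CPM, also lay above the lowest well-fed male, at 22.1 CPM. The log2 fold change was -1.18 ± 0.64 (SE) with a limma FDR of 0.254.

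The remaining members gave no call and few reads. oar-miR-379-5p, the first hairpin's 5p arm, held 67.9 ± 50.0 and 43.2 ± 29.9 CPM (SD, n = 8 each) on 319 reads, with values of 23.5 to 175 CPM in the well-fed and 0 to 99.8 CPM in the underfed males. Its highest value was 3 reads in well-fed replicate 5. Without the shallow libraries the means were 52.6 ± 27.3 CPM (SD, n = 7) and 40.9 ± 15.1 CPM (SD, n = 6), and the log2 fold change turned from -0.58 over all libraries to 0.21 over the deeper ones. oar-miR-379-3p held 22.3 ± 17.4 and 19.2 ± 9.02 CPM (SD, n = 8 each), and its log2 fold change turned from 0.69 to -0.03.

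oar-miR-411a-3p held 24.1 ± 16.1 and 12.7 ± 11.8 CPM (SD, n = 8 each) on 106 reads, oar-miR-323c 17.4 ± 12.7 and 9.57 ± 12.5 CPM on 67 reads, and oar-miR-299-5p 7.73 ± 5.84 and 12.1 ± 14.4 CPM on 47 reads. The highest underfed value of oar-miR-323c, 36.0 CPM, was 1 read in underfed replicate 6, and over the deeper libraries its FC went from 0.550 to 0.340 and its log2 fold change from -0.84 to -1.38. oar-miR-299-5p was the only member with a higher mean of deposited CPM in the underfed males, though after TMM scaling that of oar-miR-379-3p was also higher. For oar-miR-299-5p the 2 highest values, 36.0 and 33.5 CPM, were 1 read in underfed replicate 6 and 5 reads in underfed replicate 1. The limma FDR of these 5 members, the oar-miR-379 arms included, ranged from 0.524 to 0.743. Over the deeper libraries the log2 fold change went from -0.42 to -0.72 for oar-miR-411a-3p and from 0.50 to 0.23 for oar-miR-299-5p. oar-miR-1197-5p, at 6.21 ± 4.56 and 1.74 ± 1.75 CPM (SD, n = 8 each) on 26 reads, did not pass the filter of CPM above 5 in at least 8 libraries. In a fit without the filter its log2 fold change was -1.05 with a limma FDR of 0.331.

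Of the 11 members tested, 2 fell in the underfed males with an FDR under 0.05 in limma, oar-miR-323a-3p and oar-miR-411b-3p, and both also had an FC under 0.67. Among all 244 miRNAs tested, 2.46% fell by this rule. In this count oar-miR-411b-3p passed the CPM filter through the well-fed males, where it was high. It was called on 32.5 reads that could not be fully assigned to an arm. None of the members rose, against 3.69% of all miRNAs, or 0.82% when an FC above 1.5 was also asked for. No member was higher at an unadjusted p under 0.05, against 14.3% of all miRNAs. edgeR on the recovered reads also called 2 members lower and 0 higher, in a fit where 7.79% of all miRNAs were called lower. At an unadjusted p under 0.05, 4 of 11 members were lower, with oar-miR-380-3p and oar-miR-1197-3p beside both named, against 11.5% of all miRNAs. An FC under 0.67 was found for 8 of 11 members, against 41% of all miRNAs.

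The log2 fold change was below 0 for 9 of 11 members, against 52.9% of all miRNAs, and its median was -0.77 over the members and -0.68 over the 10 without oar-miR-323c, against -0.08 over all miRNAs tested. The other miRNAs of the chromosome 18 cluster lay in the same range. Of 42 listed, 36 were tested, and 32 of these had a log2 fold change below 0, with a median of -0.68, and 1 fell, oar-miR-3958-3p. The 197 miRNAs outside the cluster had a median of 0.10, and 3 fell, the predicted candidate-miR-31, candidate-miR-161 and candidate-miR-35. No test compared these sets. The members were chosen by name with earlier results of these data known, so the counts are descriptions.

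**Figure D2:**
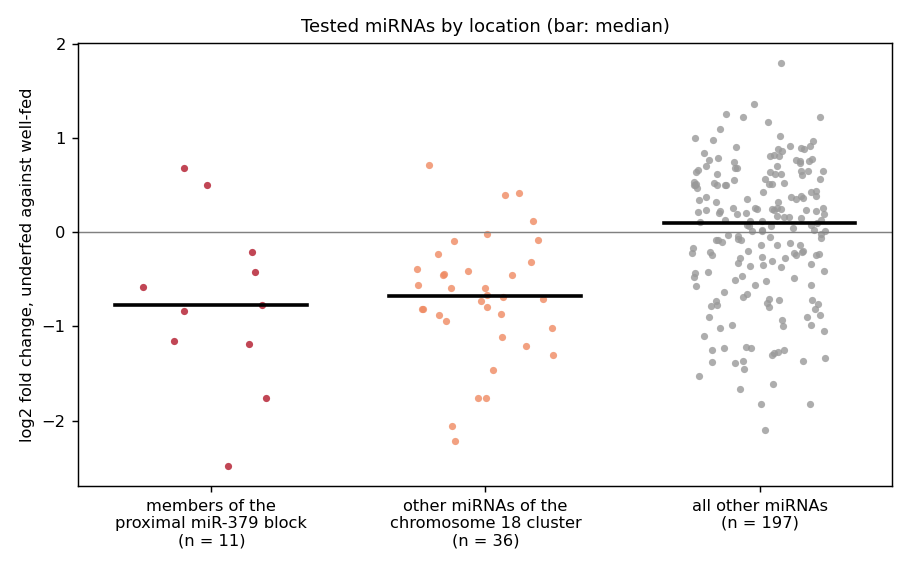
Log2 fold change (vertical axis, underfed against well-fed, log2(TMM-scaled CPM + 1) scale) of each tested miRNA as a point, for the 11 members, the 36 other miRNAs of the chromosome 18 cluster and the 197 others, with a bar at each median. The medians of the members and of the rest of the cluster, -0.77 and -0.68, lie below that of the other miRNAs, 0.10; with joint scaling to miRNA and piRNA reads the median of the members was 0.18 and that of all miRNAs 0.81.

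The direction of these values depended on what the reads were scaled to. With the deposited CPM and no TMM scaling, the median log2 fold change of all miRNAs was -0.51. With miRNA and piRNA reads scaled jointly, to the total of both classes, it was 0.81. In both, as in the values above, 9 of 11 members lay below the median of all miRNAs. Of the calls at an FDR under 0.05 over all miRNAs, 40% were lower in the underfed males in the values above, 97.4% with no TMM scaling and 0% with joint scaling. Without TMM scaling 15.6% of all miRNAs and 4 members fell (oar-miR-380-3p and oar-miR-1197-3p in addition to both named above). With joint scaling none was called in limma. There oar-miR-323a-3p was at -0.20 with a limma FDR of 0.734 and oar-miR-411b-3p at -1.39 with a limma FDR of 0.0550. In all, 5 of 11 members had a log2 fold change below 0, and oar-miR-411a-5p, oar-miR-380-3p, oar-miR-379-5p and oar-miR-411a-3p turned to values above 0, where oar-miR-379-3p and oar-miR-299-5p already were.

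**Figure D3:**
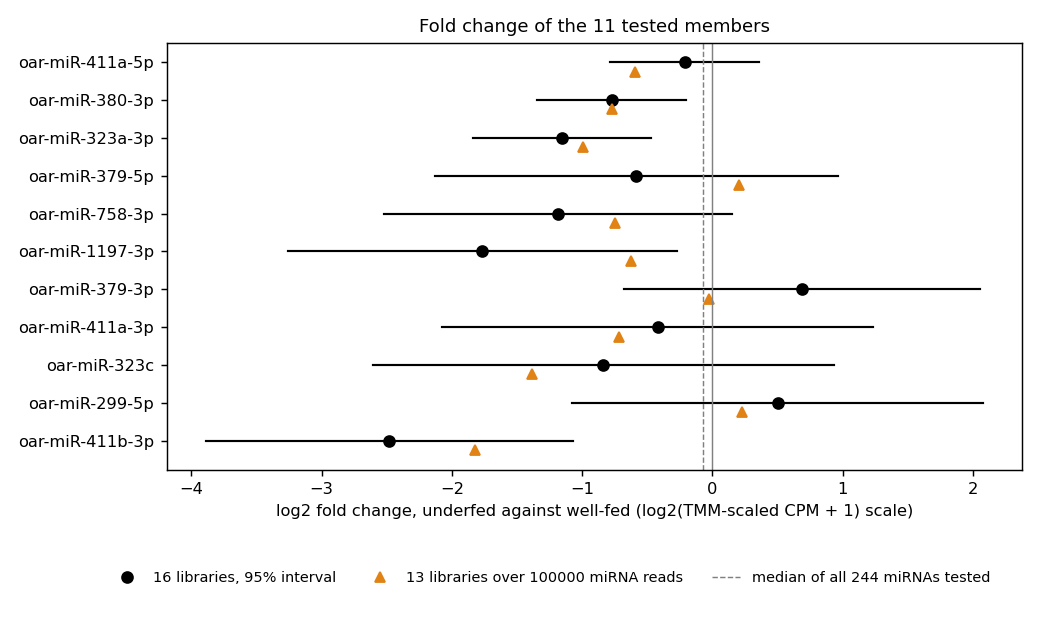
Log2 fold change (horizontal axis, underfed against well-fed) of the 11 tested members in order of abundance, with circles and 95% intervals from limma over 16 libraries, triangles for the 13 libraries over 100000 miRNA reads and a dashed line at the median of all 244 miRNAs. oar-miR-323a-3p and oar-miR-411b-3p, at -1.15 and -2.48, stay below 0 in both, while oar-miR-379-5p and oar-miR-379-3p lie on opposite sides of 0; with joint scaling oar-miR-411a-5p, oar-miR-380-3p, oar-miR-379-5p and oar-miR-411a-3p also turn to values above 0.

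The arms of a precursor were compared within each male, as the log2 ratio of 5p to 3p CPM, which does not depend on scaling between libraries. miR-411a was almost wholly a 5p miRNA. Its 5p arm had 7621 reads and its 3p arm 106, so that the 5p arm made up 98.5% of the reads of both arms in the well-fed and 98.8% in the underfed libraries. It was the higher arm in 16 of 16 males, with a log2 ratio of 6.72 ± 1.71 (SD, n = 16) and p = 3.05e-05 in an exact two-sided sign-flip permutation test (9.16e-05 adjusted over the 3 precursors), the smallest p that 16 males allow.

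miR-379 was less one-sided, and its 3p arm and that of miR-411a are among the arms with fractional reads. Its arms had 319 and 119.5 reads, with 72.1% and 73.2% of them 5p in the well-fed and underfed libraries. The 5p arm was higher in 13 of 16 males, with a log2 ratio of 1.24 ± 2.46 (SD, n = 16) and p = 0.0535 in the exact sign-flip permutation test. The extremes were shallow libraries, 7.46 in well-fed replicate 5 and -5.21 in underfed replicate 6. Over the 13 deeper libraries the ratio was 1.18 and the exact permutation p was 0.000977.

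In miR-1197 the balance was turned to the 3p side. The 5p arm had 26 reads and the 3p arm 131, so that 16.5% and 16.7% of the reads were 5p in the well-fed and underfed libraries. The 3p arm was higher in 14 of 16 males and both arms were at 0 in the other 2, with a log2 ratio of -2.18 ± 1.44 (SD, n = 16) and p = 0.000122 in the exact sign-flip permutation test (0.000183 adjusted over the 3 precursors).

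No difference in arm balance between the diets was detected. The underfed minus well-fed difference of the log2 ratio was -1.27 for miR-379, 0.10 for miR-411a and 0.79 for miR-1197, with exact two-sided permutation p of 0.408, 0.901 and 0.307 and adjusted values of 0.612, 0.901 and 0.612. Over the deeper libraries the differences were 0.22, 0.09 and -0.28, with exact permutation p of 0.674, 0.829 and 0.599. The SD within a diet was 1.40 to 2.52 over all libraries, larger than each of these differences.

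**Figure D4:**
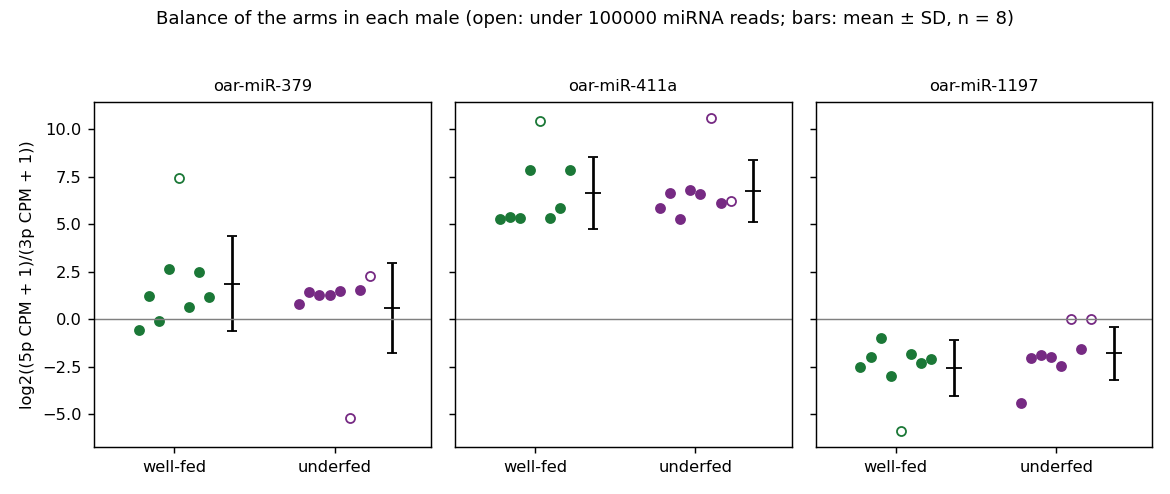
Log2 ratio of 5p to 3p CPM, each plus 1 (vertical axis), in each male by diet for the 3 precursors with both arms listed, with open circles for libraries under 100000 miRNA reads and bars for the mean ± SD of 8 males. All 16 males lie above 0 for miR-411a and none lies above 0 for miR-1197, while the ratios of miR-379 lie on both sides of 0 and the well-fed and underfed points overlap in each panel.

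The reads of 3 of the 3p arms could not be fully told apart. oar-miR-379-3p, oar-miR-411a-3p and oar-miR-411b-3p were the only members with values at a whole number of reads plus 0.5, in 12 values of 6 libraries. In each of the 6 libraries exactly 2 of these arms were at such a value and the sum of both was whole. The pair was oar-miR-379-3p with oar-miR-411a-3p in 3 libraries, oar-miR-379-3p with oar-miR-411b-3p in 2, and oar-miR-411a-3p with oar-miR-411b-3p in 1. Among the deeper libraries, 32.4% of the values above 0 of these arms were fractional, against 11.6% for all tested miRNAs. The levels of each of these 3 arms, and the call of oar-miR-411b-3p, are therefore uncertain as to which arm the reads came from. Summed, which a split of reads does not alter, the 3 arms held 63.6 ± 30.8 CPM in the well-fed and 34.3 ± 15.7 CPM in the underfed males (SD, n = 8 each) on 258 reads, a ratio of 0.539.

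Each member was also set against oar-miR-411a-5p of the same library, a comparison added after seeing the data. None of the 11 log2 ratios differed between the diets after adjustment. The lowest p was that of oar-miR-411b-3p, at -2.09 with an exact permutation p of 0.0199 (0.219 adjusted), followed by oar-miR-323a-3p at -0.94 with an exact permutation p of 0.0530 (0.292 adjusted). Over the deeper libraries these differences were -1.05 and -0.40, with exact permutation p of 0.148 and 0.289. oar-miR-380-3p came to 26.1% to 70.8% of oar-miR-411a-5p in the well-fed males, with a median of 43.4%, and to 11.1% to 109% in the underfed males, with a median of 33.7%. oar-miR-323a-3p came to a median of 51.7% of oar-miR-380-3p in the well-fed and 47.3% in the underfed males.

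After the mean of each diet was taken away, the 55 pairs of tested members had a median Pearson r of -0.03 over 16 libraries and 0.13 over the 13 deeper ones, a description in which the points share library and depth. oar-miR-380-3p and oar-miR-323a-3p varied together, with r of 0.73 and 0.65. The most abundant member, oar-miR-411a-5p, had r of -0.08 and -0.45 with oar-miR-380-3p. The highest pair over 16 libraries, oar-miR-379-5p with oar-miR-758-3p, went from 0.85 to -0.05 over the deeper ones. oar-miR-379-3p and oar-miR-411a-3p, which share fractional reads, had r of 0.57 and 0.84. The 5 other miRNAs most like the mean of the members over 16 libraries were all predicted miRNAs, candidate-miR-112, candidate-miR-115, candidate-miR-46, candidate-miR-14 and candidate-miR-170, with r of 0.79 to 0.81. Over the 13 deeper libraries their r was 0.29 to 0.66, so that the likeness rested in part on the 3 shallow ones. The order there was a different one, led by the known cluster miRNAs oar-miR-432 (0.82), oar-miR-154b-5p (0.79), oar-miR-127 (0.76) and oar-miR-409-3p (0.74). These were named after their values were seen, and over 16 libraries oar-miR-432 and oar-miR-154b-5p had r of -0.33 and -0.035. Other cluster miRNAs went the other way over the deeper libraries, down to -0.82 for oar-miR-382-3p. The median r there was 0.18 over the 36 other cluster miRNAs tested and 0.01 over the 197 miRNAs outside the cluster.

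Underfed replicates 1 and 8, which held the highest underfed values of oar-miR-380-3p, oar-miR-323a-3p and oar-miR-758-3p, also stood apart in the markers of germ cells. These were the 3 predicted miRNAs that the study pairs with miR-34b, miR-34c and miR-449a, which are known from spermatocytes and spermatids, and 2 of the 3, candidate-miR-31 and candidate-miR-161, fell with an FDR under 0.05 in limma. Their summed CPM was 47497 to 71079 in the well-fed males. It was 44629 in underfed replicate 1, 58155 in underfed replicate 8 and 10978 to 21706 in the other 6 underfed males. None of the markers was at 0 in all libraries, and both high males thus lay near or in the well-fed range.

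In the other marker lists no miRNA was called. Of the smooth muscle and peritubular list 0 of 4 changed in limma, with sums of 154457 to 211643 CPM in the well-fed and 139438 to 216012 CPM in the underfed males. Of the blood list 3 of 4 were listed, with sums of 3293 to 9150 CPM in the well-fed and 2595 to 9186 CPM in the underfed males, and 0 changed. Of the epithelial list 2 of 3 were listed, with sums of 11.4 to 58.3 and 15.6 to 79.8 CPM, and 0 changed. The ratio of miRNA to piRNA reads was 0.355 to 0.908 in the well-fed males, 0.517 in underfed replicate 1 and 1.40 to 3.13 in the other 7 underfed males, replicate 8 included. The part of germ cell content in the levels of the members was not tested.

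**Figure D5:**
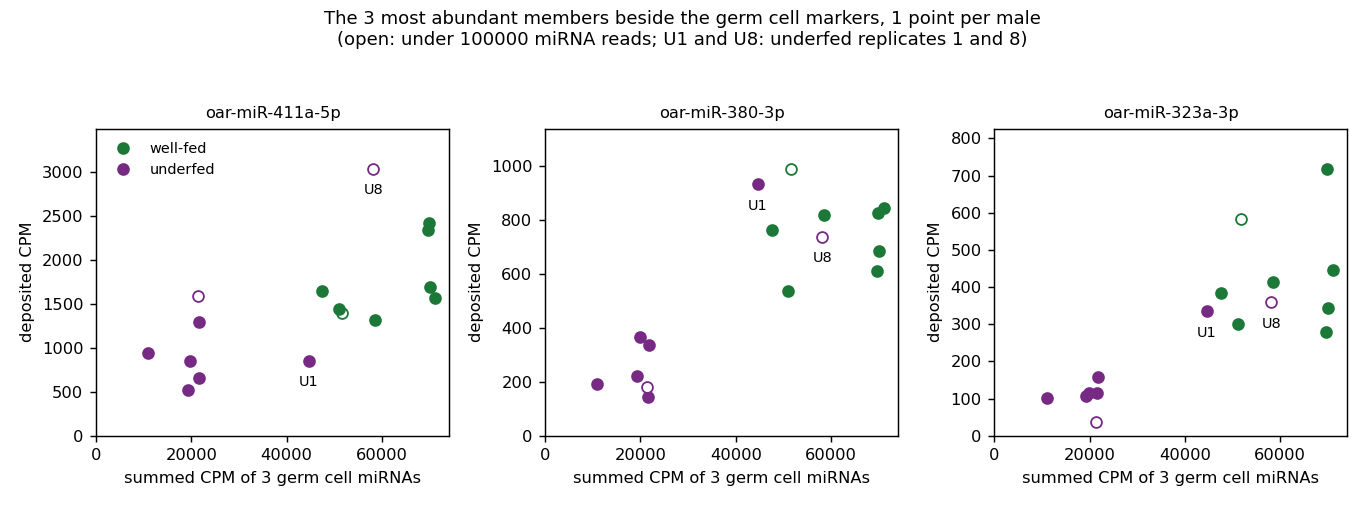
Deposited CPM of the 3 most abundant members (vertical axes) against the summed CPM of the 3 germ cell miRNAs (horizontal axes), with 1 point per male, coloured by diet and open for libraries under 100000 miRNA reads. Underfed replicates 1 (U1) and 8 (U8), at germ cell sums of 44629 and 58155 CPM, lie beside the well-fed males in oar-miR-380-3p and oar-miR-323a-3p, while in oar-miR-411a-5p U1 lies low at 852 CPM and U8 highest at 3034 CPM.

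When the 3 shallow libraries and underfed replicate 1 were left out, a choice made after seeing the data, 5 of 11 members fell with an FDR under 0.05 in limma, where 17.6% of all 244 miRNAs fell. They were oar-miR-323a-3p (-1.13), oar-miR-380-3p (-0.98), oar-miR-758-3p (-0.86), oar-miR-323c (-1.68) and oar-miR-411b-3p (-2.22). oar-miR-411a-5p and oar-miR-1197-3p were not among them.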

How the data were processed

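Testicular small RNA was sequenced by the authors in 8 well-fed and 8 underfed males, 1 library each. Per the paper's methods, the authors removed other non-coding RNAs, counted miRNAs from reads of 18 to 25 nt against known (miRBase) and predicted precursors on Oar_v3.1, and counted piRNAs from reads of 26 to 32 nt. CASAVA 1.8 is named in the submitters' processing notes. The deposited signal is CPM by the authors, computed separately within miRNAs and within piRNAs, with both classes in 1 column. The handling of reads that match several precursors is not given in the sources used here.

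Reads were recovered from the CPM steps: 93.7% to 99.0% of the low miRNA values per library (20 reads or fewer) were whole within 0.1 reads, and all were whole multiples of 0.5 reads. The edgeR quasi-likelihood test and voom on these reads were alternatives. The 244 miRNAs tested had more than 5 CPM in 8 or more of the 16 libraries. Their log2(TMM-scaled CPM + 1) was fitted with limma 3.58.1 (empirical Bayes trend, R 4.3.3, TMM from edgeR 4.0.16, trimming 30% by log ratio and 5% by abundance). FDR is Benjamini-Hochberg over all 244. Fold changes of low miRNAs on this scale varied with the pseudocount and with the inclusion of the shallow libraries, in either direction. Without the shallow libraries that of oar-miR-1197-3p went from -1.77 to -0.62 and that of oar-miR-323c from -0.84 to -1.38. FC is the ratio of arithmetic means of deposited CPM, underfed over well-fed. The design had assumed CPM, and the unit was recorded as signal because the column holds both classes.

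Arm ratios used exact permutation over 12870 arrangements of the males or 65536 sign flips (Python 3.11.15, scipy 1.17.1). Scripts were tested on simulated data. Every listed member is named, and of other miRNAs the 5 most like the members' mean, and those needed for a count of 5 or fewer. The members, the cluster list and the marker lists were chosen with earlier results of these data known. Predicted miRNAs are called candidate-miR with the authors' number. The files hold no miRNA sequences, and none are printed. p-values set differences against the spread between libraries, 1 per male. That spread includes counting error and unequal depth beside differences between males. No library pair had identical values (0 pairs).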

Additional observations from a re-analysis of the deposited data

Results flagged for a closer look

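The values of the 12 members and their sum were examined for a male that stood apart within its diet, in 26 groups of 8 values, and 5 groups held one. The rule used flags about 1 in 20 groups by chance when values are independent and normally distributed. That rate need not hold here, with few reads, unequal depth and a sum that contains the members. Underfed replicate 8, a library of 50099 miRNA reads, stood apart with the highest oar-miR-411a-5p (3034 CPM), the highest oar-miR-411a-3p of the underfed males (39.9 CPM, from 2 reads) and the highest sum of the 12 members (4351 CPM). For oar-miR-411b-3p, well-fed replicate 5 stood apart at 58.3 CPM, which was 1 read, and underfed replicate 1 at 13.4 CPM, which was 2 reads. Without underfed replicate 8 the log2 fold change of oar-miR-411a-5p was -0.40 with a limma FDR of 0.309, against -0.21 with all males. Without underfed replicate 1 that of oar-miR-411b-3p was -2.81 with a limma FDR of 0.00590, and without well-fed replicate 5 the limma FDR of oar-miR-411b-3p was 0.0545.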

How the results depend on the processing

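Of 297 fold changes of members under 27 alternatives, 245 kept their direction and their side of the threshold, 24 fell short of it, 11 newly passed it and 17 changed sign. The 2 members called lower, both of which also met the FC rule, became 4 without TMM scaling, 0 with joint scaling, 1 with the replicate number as a block, 5 with array weights and 5 without the 3 shallow libraries and underfed replicate 1, and 0 to 3 when 1 male was left out. No member was called higher under any of these. The fit without the 3 shallow libraries and underfed replicate 1 left out the underfed males highest in oar-miR-380-3p, oar-miR-323a-3p and oar-miR-758-3p. The count stayed at 2 or 3 with no filter, pseudocounts of 0.5 and 5 CPM, the 13 deeper libraries, voom, edgeR and FC from TMM-scaled CPM. Over all miRNAs the calls went from 15 in the reported fit to 39 without TMM scaling, 85 with joint scaling, 43 over the deeper libraries, 98 with array weights, 47 with voom, 47 with edgeR and 91 without the shallow libraries and underfed replicate 1, and to between 4 and 44 when 1 male was left out. The share of all 244 miRNAs called lower was 2.46% in the reported fit, 15.6% without TMM scaling, 0% with joint scaling, 2.46% with the block, 20.1% with array weights, 17.6% without the shallow libraries and underfed replicate 1, and 0% to 6.15% when 1 male was left out. Where the count of members stayed at 2 or 3, the share was 8.61% over the deeper libraries, 9.84% with voom and 7.79% with edgeR. It was 2.46% with either pseudocount and 2.21% of 271 miRNAs with no filter. The causes of these changes were not tested.

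The block took the call of oar-miR-411b-3p (limma FDR 0.0580). The replicate numbers were not taken as pairs: same-numbered males had a mean correlation of 0.05 in their deviations, males with different numbers one of 0.01, and 3 of 8 pairs exceeded 0.1.

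Signs turned mostly in members of few reads. With joint scaling oar-miR-411a-5p came to 0.74, oar-miR-380-3p to 0.18, oar-miR-379-5p to 0.47 and oar-miR-411a-3p to 0.39. oar-miR-379-5p also turned to 0.21 over the deeper libraries, 0.40 with array weights, 0.136 with voom, 0.0926 with edgeR and 0.27 without the shallow libraries and underfed replicate 1, where oar-miR-379-3p was -0.027, -0.096, above 0, -0.0575 and -0.0707. oar-miR-299-5p turned to -0.21 with array weights and -0.0942 without the shallow libraries and underfed replicate 1. With 1 male left out, oar-miR-379-5p ranged from -0.817 to 0.0868 and oar-miR-411a-3p from -0.970 to 0.0245, both turning only without underfed replicate 6. The diet difference in arm balance turned to -0.0381 for miR-411a with a pseudocount of 5 CPM, to 0.22 for miR-379 and -0.28 for miR-1197 over the deeper libraries, and ranged from -0.45 to 0.64 for miR-411a with 1 male left out, with no call in any. The arm ratio of miR-379 within males passed the threshold with a pseudocount of 5 CPM (1.09) and over the deeper libraries (1.18). Relative to oar-miR-411a-5p, oar-miR-411a-3p and oar-miR-1197-5p turned to 0.0381 and 0.00836 with a pseudocount of 5 CPM and oar-miR-379-5p to 0.81 over the deeper libraries.

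The 9 less abundant members had 26 to 319 reads over all 16 libraries, and oar-miR-411b-3p was called on 32.5 reads. The values are relative to the miRNA reads of each library, so that changes in other miRNAs move them, and no absolute amount was measured.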
